A study of Mus musculus with 8 samples.

Results

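The machinery that releases neurotransmitter from presynaptic terminals was examined as a set of 39 genes in the cortex of wild type mice and of mice with a Nova2 knockout (Nova2 KO). All animals were of the CD1 strain and were taken at postnatal day 10, with 4 mice per genotype and a single exon array for each mouse. Total RNA of whole cortex was hybridised, so fewer cells of a type and less RNA per cell cannot be told apart. The sources used here do not give how the Nova2 allele was made or which part of the gene it removes.

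Members were chosen by name. A probe set, which is a small group of array probes against 1 stretch of a transcript, was counted where its annotation named exactly 1 of the 39 genes. Of the 39 genes, 38 had such probe sets, 955 of the 391597 on the array. The exception was Vamp1, the gene of a synaptobrevin, since all 14 of its probe sets carry another gene's name as well, and no value is given for it. A filter on the mean over all 8 arrays (5.86 log2) kept 916 of the 955, with 6 to 54 per gene. The gene value of an array is the median log2 signal over the kept probe sets of a gene, and all 38 genes had one, among 11992 genes measured. The exon usage index subtracts the gene value from the log2 signal of a probe set, array by array, and it is higher when 1 stretch of a transcript gains signal relative to the rest of the gene.

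Release of transmitter begins with vesicles that are filled by a transporter, held in reserve by synapsins and tethered at the active zone, a protein mesh built from RIM, Bassoon, Piccolo, ELKS and liprin proteins. Munc13 proteins prime the vesicles, and the SNARE proteins of vesicle and plasma membrane zip together to fuse them when calcium binds a synaptotagmin. The ATPase NSF then takes the SNARE complex apart. In the mouse cortex this machinery is assembled over the first postnatal weeks, when synapses form in large number. Nova2 binds RNA in neurons, where it controls which exons are spliced into transcripts. Both the level of each transcript and the use of its single exons were therefore read here.

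The promoters of the 3 members with the lowest p at the gene level, Syn1, Ppfia3 and Nsf, are shown to give the DNA context of the genes that head the comparison. Each is the stretch of 250 bases before the transcription start in the RefSeq table of build GRCm38.p6, printed 5′ to 3′ on the strand of the gene, which is the minus strand for all 3. The positions are chrX:20920919-20921168 for Syn1, chr7:45367020-45367269 for Ppfia3 and chr11:103954057-103954306 for Nsf. Capitals mark matches on either strand to CAGCACC, 1 part of the RE1 element bound by the neuronal repressor REST, and to TGACGTCA, the cyclic AMP response element.
Syn1: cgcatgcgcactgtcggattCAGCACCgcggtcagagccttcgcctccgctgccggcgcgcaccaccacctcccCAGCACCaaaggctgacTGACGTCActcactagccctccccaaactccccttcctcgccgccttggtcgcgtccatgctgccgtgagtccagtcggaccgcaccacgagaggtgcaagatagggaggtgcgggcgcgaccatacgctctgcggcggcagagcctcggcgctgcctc
Ppfia3: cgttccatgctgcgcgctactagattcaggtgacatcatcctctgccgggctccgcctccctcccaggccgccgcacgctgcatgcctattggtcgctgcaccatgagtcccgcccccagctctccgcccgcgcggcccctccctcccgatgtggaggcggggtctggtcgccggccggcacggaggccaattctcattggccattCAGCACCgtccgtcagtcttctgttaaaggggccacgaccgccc
Nsf: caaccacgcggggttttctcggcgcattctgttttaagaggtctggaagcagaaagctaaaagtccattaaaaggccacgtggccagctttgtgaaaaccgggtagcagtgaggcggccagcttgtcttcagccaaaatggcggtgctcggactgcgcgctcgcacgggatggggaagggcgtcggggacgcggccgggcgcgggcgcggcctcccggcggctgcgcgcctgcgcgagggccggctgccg
Syn1 held 2 matches to CAGCACC and 1 to TGACGTCA, Ppfia3 held 1 to CAGCACC, and Nsf held neither. These letters do not overlap each other in the windows shown. The table held 41 windows for 33 of the 39 genes. Of the 41 windows, 3 had CAGCACC (7.32%, in Syn1, Ppfia3 and Sv2c), against 5.73% of all 32851 windows of the table, and 1 had TGACGTCA (2.44%), against 1.55% of all windows. A match is a run of letters and not a measured binding site.

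The knockout was checked on Nova2 itself, which 16 probe sets name. Neither the probe set with the lowest p nor the gene value had a limma adjusted p under 0.05. That probe set was chosen by its p, so the separation of its groups follows in part from the choice. The Nova2 probe set with the lowest p, 5294108 (-1.82 log2, limma adjusted p = 0.0786), lay between 6.28 and 7.26 log2 on the 4 Nova2 KO arrays and between 8.53 and 8.87 log2 on the 4 wild type arrays, while the Nova2 gene value, which is a median over probe sets along the whole gene, differed by -0.016 log2 (SE 0.11). Array medians ran from 7.02 to 7.37 log2. The arrays numbered 4 had the lowest medians in both groups and the largest shares of values at the floor of the scale, 3.34% in wild type and 2.20% in Nova2 KO. Spearman correlations between arrays were 0.935 to 0.976. An array has no read depth, so the number of arrays limits the precision.

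At the gene level no presynaptic member passed the test, and the differences were small. The 38 differences (Nova2 KO minus wild type) ran from -0.31 log2 for Ppfia3 to 0.33 log2 for Rab3b, at most 1.26-fold in either direction. None of the 38 had a limma adjusted p under 0.05, where 25 of 11992 genes (0.208%) did, and the lowest adjusted p of a member was 0.296 for Syn1. At an unadjusted p under 0.05 there were 5 members lower in Nova2 KO, namely Syn1, Ppfia3, Nsf, Rims1 and Rab3gap1, and 1 higher, Syt4. The background for such a p is 3.72% of all genes lower and 7.86% higher, so that 5 of 38 is a larger share than the background and 1 of 38 a smaller one. The same 5 members had all 4 Nova2 KO values below all 4 wild type values, an order found in 2.5% of all genes, and Syt4 had all 4 above, as 5.06% of all genes did.

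The count of 5 rested in part on single arrays. Without wild type 2 it was 1 (Syn1), and without wild type 4 it was 9, when 2.94% and 6.28% of all genes were lower at that p. Over all members, 22 were lower and 16 higher, with a median difference of -0.064 log2, against 0.022 log2 over all genes, of which 44.6% were lower. This median was 0.020 log2 without Nova2 KO 4, when 18 members were lower. The median deviation of the 38 members from their wild type means was 0.047 log2 on Nova2 KO 1 and 0.054 on Nova2 KO 3, but -0.14 on Nova2 KO 2 and -0.18 on Nova2 KO 4. On the wild type arrays it was 0.026, 0.032, 0.032 and, for wild type 4, -0.097 log2. The Nova2 KO arrays thus fell into a pair near the wild type level and a pair below it, and wild type 4 lay below its own group.

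The median SE of the members was 0.11 log2, and 32 of 38 intervals at 95% confidence lay wholly within 0.5 log2 of zero on both sides. The bounds reached -0.596 log2 at the lowest (Slc17a6) and 0.722 log2 at the highest (Rab3b). For the other 6 genes, differences of more than 0.5 log2 lay within the interval.

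**Figure D1:**
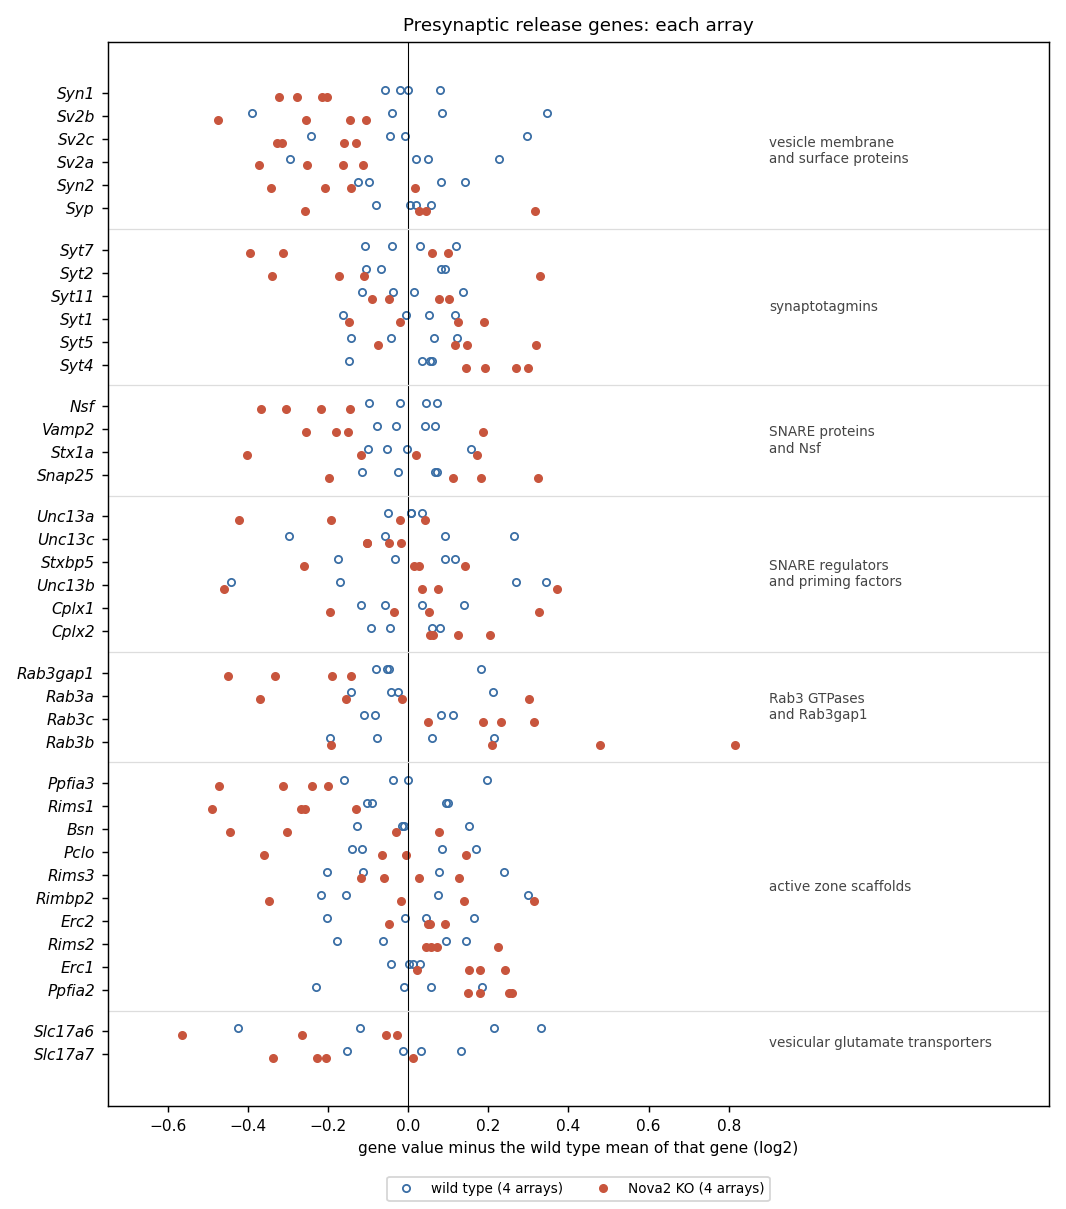
Gene value of each presynaptic member on each array, as the difference from the wild type mean of that gene in log2, for 38 genes grouped by role. Open circles are the 4 wild type arrays and filled circles the 4 Nova2 KO arrays. The filled circles of Syn1, Nsf, Rab3gap1, Ppfia3 and Rims1 all lie left of the open ones, those of Syt4 all lie right, and for the other 32 genes the groups overlap.

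Among proteins of the vesicle membrane and surface, 5 of 6 members lay below wild type in the knockout (median -0.23 log2), and none passed the test. Syn1 encodes synapsin I, a phosphoprotein that ties vesicles to actin. Its gene values were 10.84, 10.86, 10.80 and 10.94 log2 in wild type and 10.66, 10.58, 10.65 and 10.54 log2 in Nova2 KO. The groups did not overlap, and each was tight, with SDs of 0.058 and 0.056. The difference of -0.25 log2 (SE 0.089, n = 4 per group), a 1.19-fold higher level in wild type, had a limma adjusted p of 0.296, and 21 of 21 probe sets of Syn1 were lower. Probe sets of 1 gene share its level on each array, so such counts are not independent evidence, here and below. Syn2, the paralog of Syn1, differed by -0.17 log2 (SE 0.11).

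The SV2 proteins are glycoproteins of the vesicle membrane related to transporters, and Sv2a is the binding site of the antiepileptic drug levetiracetam. All 3 were lower by a similar amount, Sv2a by 0.22, Sv2b by 0.25 and Sv2c by 0.23 on the log2 scale, with SEs of 0.12, 0.15 and 0.12. Sv2c read 8.67, 8.87, 9.21 and 8.90 log2 in wild type and 8.59, 8.75, 8.78 and 8.60 log2 in Nova2 KO (limma adjusted p = 0.474), and the difference was -0.13 log2 without wild type 3. Its groups overlapped, since wild type 1 lay among the Nova2 KO arrays, and 18 of 18 probe sets were lower. For Sv2b, wild type 4 (10.09 log2) lay among the Nova2 KO values. Syp, which encodes synaptophysin, the most widely used marker of synaptic vesicles, differed by 0.032 log2 (SE 0.12), with Nova2 KO values on both sides of the wild type range.

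The synaptotagmins, which carry the calcium-binding domains that time release, did not move as a group: 4 of 6 were higher and 2 lower, with a median of 0.024 log2. The product of Syt4 binds calcium poorly and sits largely on dense-core vesicles. Syt4 read 11.16, 11.18, 11.18 and 10.98 log2 in wild type and 11.39, 11.31, 11.27 and 11.42 log2 in Nova2 KO. Every Nova2 KO array lay above every wild type array, and wild type 4 was the lowest by a wide gap. The difference was 0.23 log2 (SE 0.095, limma adjusted p = 0.384), with 12 of 12 probe sets higher. Syt5 read 11.41, 11.30, 11.20 and 11.47 log2 in wild type and 11.49, 11.27, 11.66 and 11.46 log2 in Nova2 KO, and the groups overlapped (0.13 log2, SE 0.11, limma adjusted p = 0.692). The Syt5 difference was 0.063 log2 without Nova2 KO 3, 0.079 without wild type 3 and 0.19 without Nova2 KO 2.

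Syt1, the fast calcium sensor of most forebrain synapses, differed by 0.036 log2 (interval -0.198 to 0.27 log2), and its 24 probe sets were split evenly, 12 lower and 12 higher. Syt2, the fast sensor of some inhibitory and hindbrain terminals, differed by -0.073 log2 (SE 0.14). For Syt7, a slow high-affinity sensor, the difference was -0.14 log2 (SE 0.13), with Nova2 KO 2 and Nova2 KO 4 below the wild type range and the other two within it. Syt11 differed by 0.011 log2 (SE 0.098).

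Of the 4 measured genes of the SNARE complex and its recycling, 3 were lower and 1 higher, with a median of -0.091 log2. Nsf encodes the ATPase that disassembles used SNARE complexes. It read 11.52, 11.54, 11.45 and 11.37 log2 in wild type and 11.25, 11.32, 11.10 and 11.17 log2 in Nova2 KO, without overlap. The difference was -0.26 log2 (SE 0.095, limma adjusted p = 0.318), and 24 of 24 probe sets were lower. The SNARE genes themselves differed less. Vamp2, the vesicle SNARE of the forebrain, read 12.05, 12.15, 12.01 and 12.13 log2 in wild type and 11.90, 11.83, 12.27 and 11.94 log2 in Nova2 KO. Nova2 KO 1, 2 and 4 lay below the wild type range and Nova2 KO 3 above it, with a difference of -0.099 log2 (SE 0.11, limma adjusted p = 0.777) that was -0.048 without Nova2 KO 2 and -0.195 without Nova2 KO 3. For the plasma membrane partners, Snap25 differed by 0.11 log2 (SE 0.12) and Stx1a by -0.082 log2 (SE 0.13).

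The priming factors and SNARE regulators had the median nearest to zero of the role groups, with 3 of 6 genes lower and a median of -0.0066 log2. Unc13a encodes Munc13-1, the main priming factor of cortical glutamatergic synapses. It read 9.94, 9.94, 9.96 and 9.88 log2 in wild type and 9.91, 9.74, 9.97 and 9.51 log2 in Nova2 KO, so that Nova2 KO 2 and Nova2 KO 4 were low, Nova2 KO 1 lay within the wild type range and Nova2 KO 3 just above it. The difference was -0.15 log2 (SE 0.11, limma adjusted p = 0.647), and it was -0.056 log2 without Nova2 KO 4. Of the 54 Unc13a probe sets, 45 were lower. Cplx2 encodes a complexin, which clamps and then promotes SNARE fusion. It read 10.71, 10.69, 10.58 and 10.54 log2 in wild type and 10.75, 10.69, 10.83 and 10.69 log2 in Nova2 KO, with overlap (0.11 log2, SE 0.093, limma adjusted p = 0.679).

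Cplx1 differed by 0.037 log2 (SE 0.12) and Unc13c by -0.068 log2 (SE 0.12). Stxbp5, which encodes the release inhibitor tomosyn, differed by -0.019 log2 (SE 0.11). Unc13b, the gene of Munc13-2, was the least certain of the group, with 0.0056 log2 and an SE of 0.196. Its wild type values alone ran from 7.46 to 8.25 log2.

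Rab3 GTPases mark vesicles and bind RIM at the active zone, and Rab3gap1 encodes the catalytic subunit of their GTPase-activating complex. Rab3gap1 read 8.54, 8.77, 8.54 and 8.51 log2 in wild type and 8.45, 8.40, 8.14 and 8.26 log2 in Nova2 KO. No Nova2 KO array reached the wild type range, in which wild type 2 stood above the other 3. The difference was -0.28 log2 (SE 0.11, limma adjusted p = 0.333), and 26 of 28 probe sets were lower.

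The GTPases themselves went in different directions. Rab3c read 9.96, 9.99, 9.79 and 9.76 log2 in wild type and 9.92, 10.06, 10.19 and 10.11 log2 in Nova2 KO, with 14 of 15 probe sets higher (0.195 log2, SE 0.10, limma adjusted p = 0.476). Only Nova2 KO 1 lay inside the wild type range of Rab3c. For Rab3b the difference of 0.33 log2 was the largest of all members in either direction, but its SE was also large (0.18), because Nova2 KO 3 read 11.40 log2 and Nova2 KO 2 only 10.39 log2. Rab3a, the main form in the brain, differed by -0.060 log2 (SE 0.14).

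The scaffolds of the active zone were evenly divided, with 5 of 10 lower and a median of 0.0082 log2. Ppfia3 encodes liprin-alpha-3, an adaptor of the active zone. It read 9.48, 9.67, 9.44 and 9.32 log2 in wild type and 9.23, 9.28, 9.16 and 9.00 log2 in Nova2 KO, without overlap. The difference of -0.31 log2 (SE 0.11, limma adjusted p = 0.301) was the lowest of all members, a 1.24-fold higher level in wild type, and 34 of 35 probe sets were lower. Its paralog Ppfia2 was on the other side, at 0.21 log2 (SE 0.11), with 35 of 37 probe sets higher.

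Rims1 encodes RIM1, which links Rab3, Munc13 and calcium channels. It read 9.69, 9.87, 9.88 and 9.67 log2 in wild type and 9.52, 9.51, 9.65 and 9.29 log2 in Nova2 KO. The groups did not overlap, although wild type 4 and Nova2 KO 3 lay close together. The difference was -0.29 log2 (SE 0.11, limma adjusted p = 0.325), with 38 of 44 probe sets lower. Its relatives Rims2 (0.10 log2, SE 0.10) and Rims3 (-0.0060 log2, SE 0.12) were nearer to zero.

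Among the large scaffolds, Bsn, which encodes Bassoon, differed by -0.18 log2 (SE 0.13), with 41 of 42 probe sets lower, and Pclo, which encodes Piccolo, by -0.072 log2 (SE 0.12). The ELKS genes Erc1 and Erc2 differed by 0.15 log2 (SE 0.091) and 0.037 log2 (SE 0.10). Rimbp2, which encodes a protein that joins RIM to calcium channels, differed by 0.022 log2 (SE 0.15).

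The vesicular glutamate transporters load the vesicle, and in the cortex Slc17a7 (VGLUT1) belongs mainly to cortical neurons and Slc17a6 (VGLUT2) to early cortical neurons and thalamic afferents. Slc17a7 read 12.21, 12.16, 12.30 and 12.02 log2 in wild type and 12.18, 11.95, 11.97 and 11.84 log2 in Nova2 KO. Only Nova2 KO 1 lay within the wild type range, and the difference was -0.19 log2 (SE 0.11, limma adjusted p = 0.517), with 17 of 18 probe sets lower. Slc17a6 read 9.41, 9.29, 8.95 and 8.65 log2 in wild type and 9.05, 9.02, 8.51 and 8.81 log2 in Nova2 KO. The wild type arrays alone spanned a wider range than the difference of -0.23 log2 (SE 0.17, limma adjusted p = 0.637). The Slc17a6 difference was -0.12 log2 without wild type 1 or without Nova2 KO 3, and -0.37 without wild type 4.

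**Figure D2:**
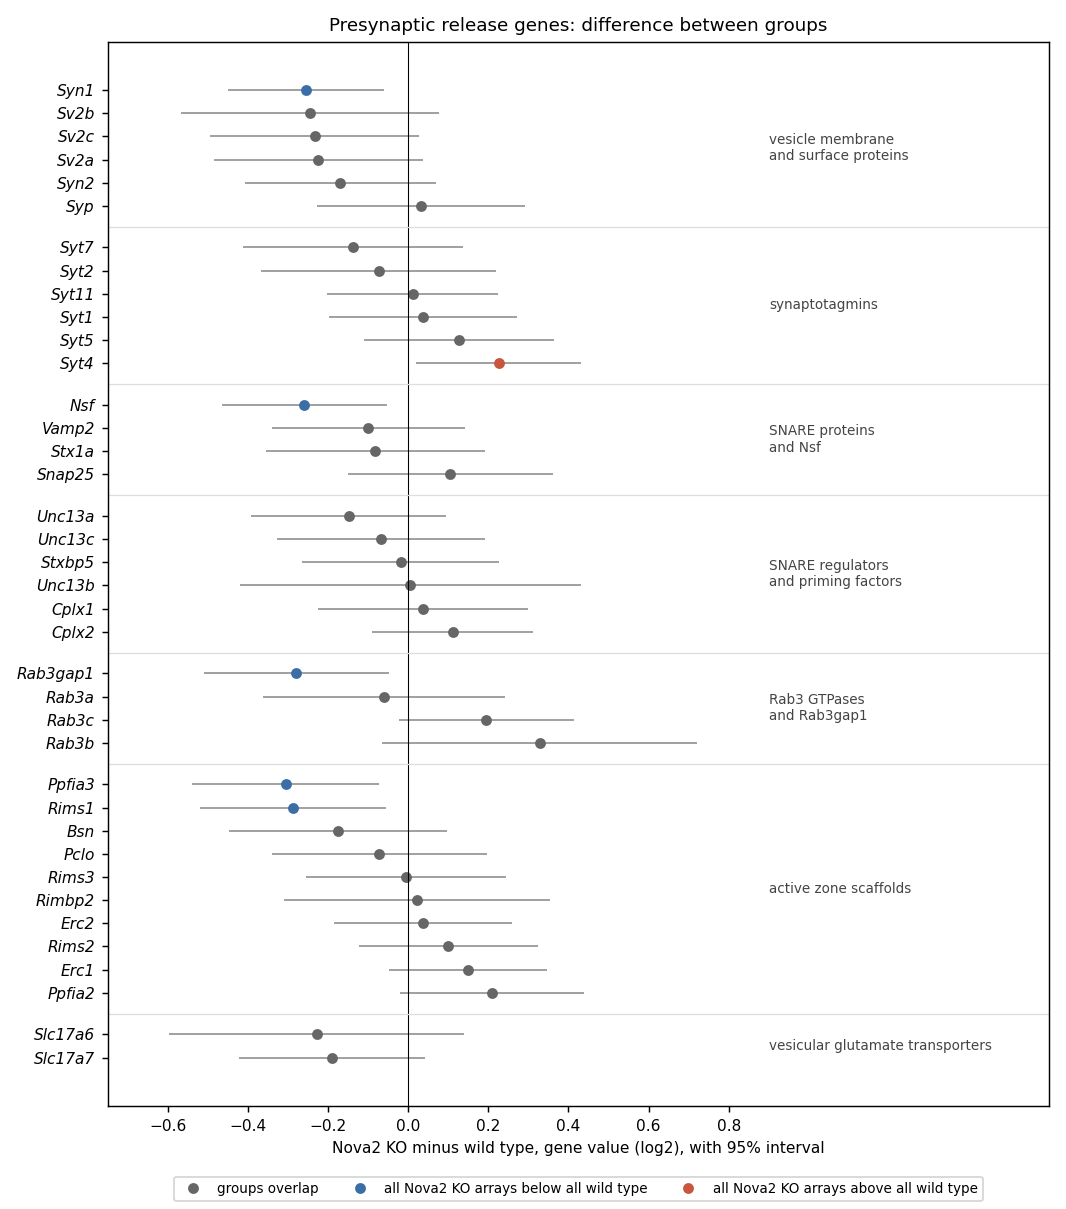
Difference between groups (Nova2 KO minus wild type, log2) of the gene value of the 38 presynaptic members, with 95% intervals from limma and n = 4 arrays per group. Blue points mark the 5 genes and the red point the 1 gene whose groups do not overlap. The intervals of these 6 exclude zero before adjustment, and none has an adjusted p under 0.05.

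Members of 1 family were then compared with each other within each array, which takes out whatever shifts both genes of an array alike. There were 18 such pairs in 10 families, and the test, an exact permutation test over the 8 arrays (two-sided, smallest possible p 0.0286), was chosen after the gene values were seen. In 2 pairs the ratio did not overlap between groups, and no share over other pairs of genes was computed to set beside this count. Each of these pairs holds a gene, Ppfia3 or Rims1, whose groups were already separate at the gene level. The log2 ratio of Ppfia2 to Ppfia3 was 0.43 ± 0.16 (SD, n = 4) in wild type and 0.94 ± 0.12 in Nova2 KO, a difference of 0.52 log2 (exact permutation p = 0.0286). The ratio of Rims1 to Rims2 was 0.81 ± 0.062 in wild type and 0.42 ± 0.11 in Nova2 KO, a difference of -0.39 log2 (exact permutation p = 0.0286). Adjusted over the 18 pairs, both had an exact permutation p of 0.257. Both pairs were already at the smallest p that 8 arrays allow. With only 2 of 18 pairs at that p, the adjusted p could not fall under 0.05, so this test cannot decide.

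The other 16 pairs overlapped. The ratio of Rab3a to Rab3b differed by -0.39 log2 (exact permutation p = 0.114) and that of Rab3a to Rab3c by -0.26 log2 (exact permutation p = 0.171). In contrast, the 3 ratios among the SV2 genes differed by -0.012 to 0.021 log2, and the ratio of the 2 glutamate transporters by 0.038 log2. The genes of these last 2 families differed from wild type by nearly the same amount.

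**Figure D3:**
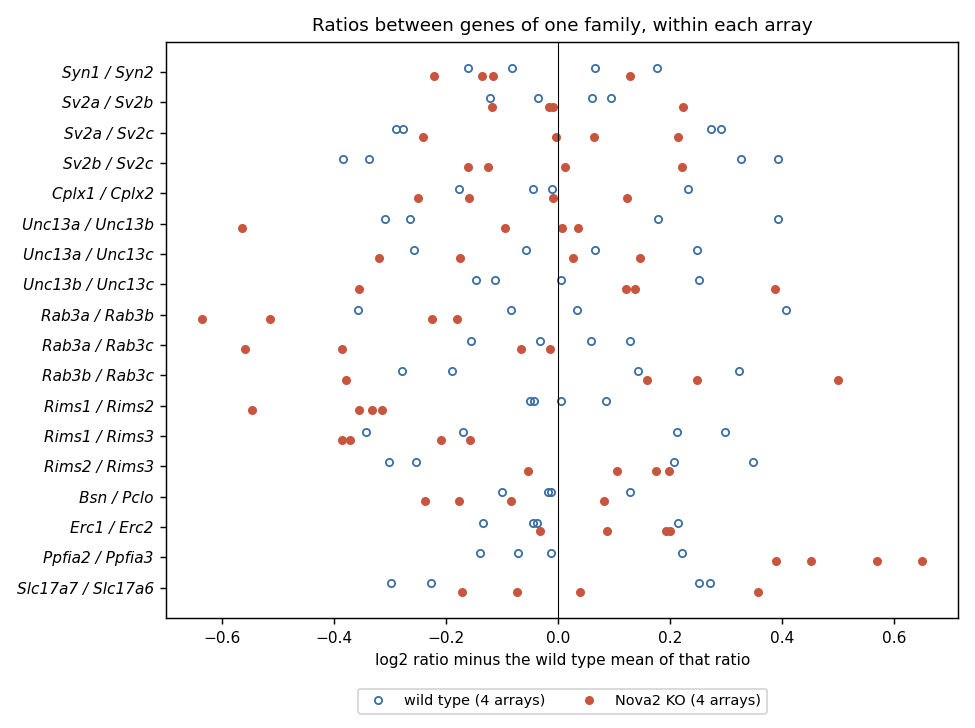
Log2 ratio between 2 genes of a family within each array, as the difference from the wild type mean of that ratio, for 18 pairs. Open circles are wild type arrays and filled circles Nova2 KO arrays. The filled circles of Ppfia2 / Ppfia3 all lie right of the open ones and those of Rims1 / Rims2 all lie left.

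Exon usage asked whether single stretches of these transcripts changed relative to the rest of the gene. No presynaptic probe set passed the test of the index: 0 of 916 had a limma adjusted p under 0.05, where 26 of 195014 probe sets on the array did (0.0133%). At an unadjusted p under 0.05 there were 56 of 916 (6.11%), 32 higher and 24 lower, near the background of 6.76%. Among these 56, the probe sets 4341987 of Syt7 and 5494134 of Stxbp5 had wild type means below the filter and passed it only through Nova2 KO. By the Simes p, which combines the probe sets of a gene, 0 of 38 members passed against 0.161% of 11187 genes. At an unadjusted Simes p under 0.05 there were 2, Rims1 (0.0071) and Unc13b (0.035), or 5.26%, against a background of 8.37%. Differences of the index had a 5th percentile of -0.26 and a 95th of 0.28 log2 among member probe sets, and -0.32 and 0.34 log2 among all probe sets.

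Rims1 had the 2 member probe sets with the lowest p, and they pointed in opposite directions. Probe set 5608192 had signals of 7.41, 8.08, 7.98 and 7.20 log2 in wild type and 8.36, 8.27, 8.65 and 8.06 log2 in Nova2 KO. Relative to the gene it was at -2.28, -1.79, -1.90 and -2.47 log2 in wild type and -1.16, -1.23, -0.996 and -1.22 log2 in Nova2 KO. All 4 Nova2 KO values of the index lay well above the wild type range. The index differed by 0.96 log2 (SE 0.16, interval 0.601 to 1.31), with a limma adjusted p of 0.301. The signal itself differed by 0.67 log2 (SE 0.22, limma adjusted p = 0.688). On signal the groups overlapped, since Nova2 KO 4 lay just below wild type 2. The Rims1 gene value, which the index subtracts, differed by -0.29 log2.

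The other Rims1 probe set, 4348788, had signals of 8.74, 8.97, 9.13 and 8.54 log2 in wild type and 7.84, 7.95, 8.01 and 7.16 log2 in Nova2 KO. The groups were separated by more than 0.5 log2, and Nova2 KO 4 was the lowest array. Its signal differed by -1.11 log2 (SE 0.22, limma adjusted p = 0.365) and its index by -0.82 log2 (adjusted p = 0.359). In all, 6 of 44 Rims1 probe sets (13.6%) had an unadjusted p of the index under 0.05, against a background of 6.76%. Of these 3 were higher and 3 lower, among them 4754988 (0.66 log2) and 5111841 (0.61 log2). Which exons these probe sets cover was not analysed here.

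**Figure D4:**
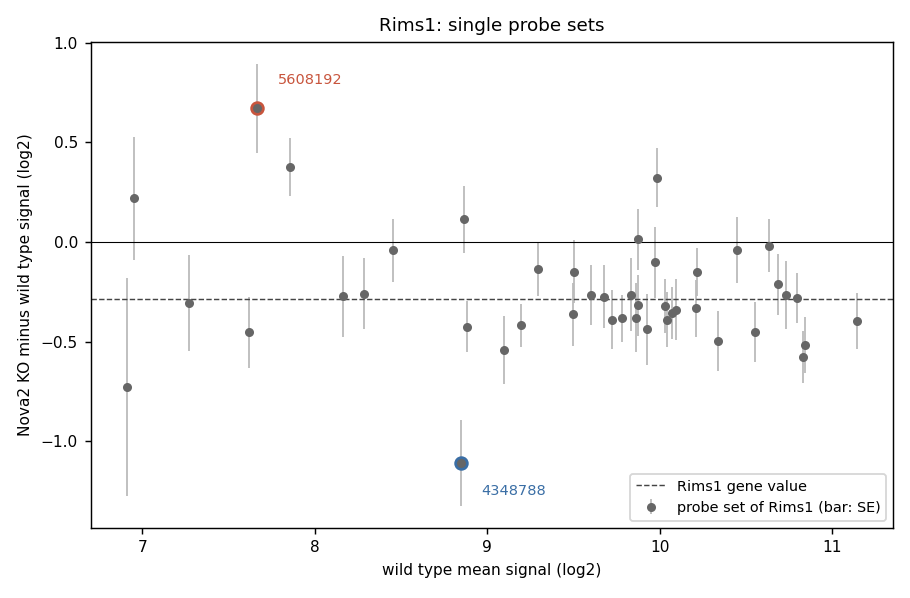
Difference of the signal (Nova2 KO minus wild type, log2, with SE) of each of the 44 kept Rims1 probe sets, against its mean signal in wild type. The dashed line is the difference of the Rims1 gene value, -0.29 log2, near which most probe sets lie. Probe set 5608192 lies above it at 0.67 log2 and 4348788 below it at -1.11 log2.

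Other settings gave calls where the main test gave none. With diffSplice of limma, which pools the spread over the probe sets of a gene, both Rims1 probe sets passed (adjusted p = 0.0013 for 5608192 and 0.0061 for 4348788). So did Syn2 probe set 4438682 (0.84 log2, adjusted p = 0.0369) and Rab3gap1 probe set 5164052 (-0.93 log2, adjusted p = 0.0461). The remaining call was Syt7 probe set 4341987, whose wild type mean of 5.80 log2 is below the filter of 5.86 log2. It was kept only through its Nova2 KO values and so had to differ, and no p is given for it. With it, diffSplice called 5 of 916 member probe sets (0.546%) and 506 of 195014 in all (0.259%). By its Simes p Rims1 passed, and Syt7 through that probe set. With the array median as a covariate, the signal of 4348788 passed as well (-1.099 log2, limma adjusted p = 0.029), in a fit that called 184 probe sets in all against 20 without the covariate.

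The arrays behind these calls differed in kind. For the Rab3gap1 probe set, Nova2 KO 4 read 4.01 log2, at the floor of the scale, while the other Nova2 KO arrays read 7.44, 7.17 and 7.41 log2 and wild type 7.60 to 7.73 log2, so that 1 array made most of the difference. The Syt7 probe set was dim and scattered in wild type (6.52, 4.46, 5.02 and 7.20 log2) and read 8.18, 8.26, 7.49 and 6.94 log2 in Nova2 KO, where Nova2 KO 4 lay below wild type 4. Its difference in signal was 1.91 log2 with an SE of 0.58. The Syn2 probe set read 6.32, 6.93, 6.80 and 6.11 log2 in wild type and 7.10, 7.27, 7.48 and 6.74 log2 in Nova2 KO, with overlap. The 2 Rims1 probe sets were the only ones of the 5 whose index adjusted p in the main test was under 0.5.

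Other members had smaller differences of the index, and none passed. In Unc13b, probe set 4362248 had an index of -0.11, 0.16, 0.26 and -0.018 log2 in wild type and -0.52, -0.51, -0.47 and -0.90 log2 in Nova2 KO, where array 4 stood apart. The index differed by -0.67 log2 (SE 0.13, limma adjusted p = 0.454), and 8 of 52 probe sets of Unc13b (15.4%) had an unadjusted p under 0.05. In Syn2, probe set 5441399 had an index of -0.27, -0.25, -0.19 and -0.33 log2 in wild type and -0.47, -0.66, -0.65 and -0.64 log2 in Nova2 KO, a difference of -0.35 log2 (SE 0.086, limma adjusted p = 0.57). Of the 26 Syn2 probe sets, 5 (19.2%) had an unadjusted p under 0.05. The shares of Syn2 and Unc13b were the largest among the members. The background was 6.76%, the members together had 6.11%, and members such as Syn1 and Nsf had 0%.

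Among the scaffolds, the index of Pclo probe set 5036000 was -1.58, -1.35, -1.56 and -1.38 log2 in wild type and -1.099, -1.05, -1.09 and -1.15 log2 in Nova2 KO, without overlap (0.37 log2, SE 0.090, limma adjusted p = 0.57). Erc2 probe set 5148551 was at -2.50, -2.14, -2.14 and -1.997 log2 in wild type and -1.89, -1.64, -1.65 and -1.60 log2 in Nova2 KO (0.50 log2, SE 0.13, limma adjusted p = 0.579). Both were higher relative to their gene on every Nova2 KO array. Erc1 probe set 5111750 was at 0.026, -0.075, -0.21 and 0.093 log2 in wild type and 0.32, 0.22, 0.68 and 0.31 log2 in Nova2 KO (0.42 log2, SE 0.12, limma adjusted p = 0.635). Rimbp2 probe set 5299107 was at 0.58, 0.51, 0.26 and 0.40 log2 in wild type and 0.66, 0.80, 0.76 and 0.74 log2 in Nova2 KO (0.31 log2, SE 0.096, limma adjusted p = 0.661). For these as well no array of one group reached the other, in probe sets that were chosen by their low p.

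The remaining 3 of the 10 came from dim probe sets, with wild type means of 5.80 to 6.42 log2. Syt7 probe set 4341987, described above, differed by 2.05 log2 in the index, a description only since it passed the filter through Nova2 KO alone, with index values of -3.32, -5.15, -4.66 and -2.55 log2 in wild type and -1.64, -1.15, -2.29 and -2.38 log2 in Nova2 KO. Rab3a probe set 4362468 was at -3.94, -4.12, -4.71 and -4.83 log2 in wild type and -3.96, -3.39, -3.46 and -3.67 log2 in Nova2 KO, with overlap (0.78 log2, SE 0.22, limma adjusted p = 0.622). Unc13a probe set 5212579 was at -3.47, -3.78, -3.66 and -3.67 log2 in wild type and -3.195, -3.48, -3.24 and -3.23 log2 in Nova2 KO (0.36 log2, SE 0.11, limma adjusted p = 0.635), where Nova2 KO 2 lay at the wild type level.

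**Figure D5:**
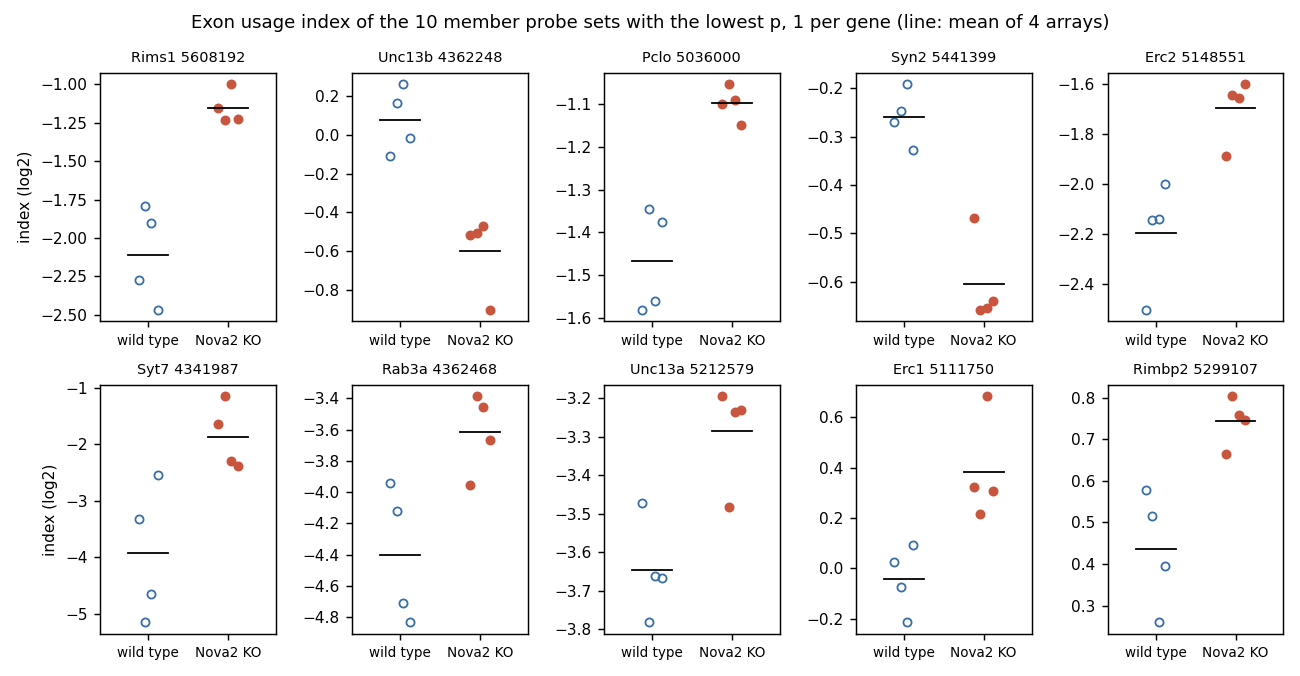
Exon usage index (log2 probe set signal less the gene value, per array) of the 10 member probe sets with the lowest p, 1 per gene. Open circles are the 4 wild type arrays, filled circles the 4 Nova2 KO arrays and lines the group means, and each panel has its own axis, which does not start at zero. The groups are separate in 8 panels and overlap for Rab3a and Unc13a. The panels were chosen by low p, so the separation follows in part from that choice. The Syt7 probe set passed the filter only through Nova2 KO.

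Without division by the gene, the signals of single probe sets gave the same count. Of 916 member probe sets, 0 had a limma adjusted p under 0.05, against 0.00681% of the 293697 kept probe sets. At an unadjusted p under 0.05 there were 65 lower and 28 higher, 10.2% in all, where the background was 6.68%. Probe sets of 1 gene share its level and are not independent, and 21 of the 21 of Syn1, 24 of 24 of Nsf, 18 of 18 of Sv2c, 12 of 12 of Syt4 and 7 of 7 of Rab3b lay on 1 side of zero.

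Other genes of the release pathway, from a list beyond the 39 members, gave no call either. Of 65 listed names 59 had a gene value, and 0 passed with limma. Of the 59, 35 were lower (59.3%, against 44.6% of all genes) and 24 higher, with a median of -0.046 log2. At an unadjusted p under 0.05 there were 4 higher and 5 lower. The background is 7.86% of all genes higher and 3.72% lower, so 4 of 59 is a smaller share than the background and 5 of 59 a larger one. Lin7c, which encodes a scaffold of the CASK and Mint complex, came closest, with means of 10.07 log2 for wild type and 10.64 log2 for Nova2 KO (0.56 log2, SE 0.10, limma adjusted p = 0.0528), and its groups did not overlap. Doc2a, a calcium sensor of spontaneous release, differed by -0.38 log2 (SE 0.090, adjusted p = 0.158) and Syt13 by -0.44 log2 (SE 0.11, adjusted p = 0.205), both without overlap of the groups. Syt9, a further calcium sensor, differed by 0.30 log2 (SE 0.098, adjusted p = 0.283).

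Of 6 other vesicular transporters 5 were measured, and none passed with limma. Slc17a8 (VGLUT3) differed by 0.35 log2 (SE 0.13, adjusted p = 0.334) and Slc30a3, the vesicular zinc transporter of cortical glutamatergic terminals, by -0.28 log2 (SE 0.12, adjusted p = 0.383). Slc18a2, the vesicular monoamine transporter, differed by 0.31 log2 (SE 0.15), and Slc32a1, the transporter of GABAergic vesicles, by 0.057 log2 (SE 0.16).

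Marker lists of the cells that carry or surround these synapses were read beside the members. The labelled tissue showed cortical glutamatergic markers, with 5 of 8 measured (Tbr1, Neurod6, Neurod2, Bhlhe22 and Cux2), 3 higher and 2 lower, and none passed. Interneuron markers had 9 of 11 higher, with a median of 0.057 log2. Pan-neuronal markers had 6 of 9 lower with a median of -0.13 log2, among them the neurofilament genes Nefl (-0.40 log2, SE 0.14), Nefh (-0.37 log2, SE 0.15) and Nefm (-0.32 log2, SE 0.14), and none passed. On this list Stmn2 (0.18 log2) and Gap43 (0.17 log2), genes of growing axons, were on the other side.

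All 6 measured markers of immature neurons were on the higher side (median 0.22 log2). Of these Dcx rose by 0.81 log2 (limma adjusted p = 0.0133), and the summed level of the list ran from 13.46 to 13.60 log2 in wild type and from 13.76 to 13.91 log2 in Nova2 KO. Myelin and oligodendrocyte markers lay on the lower side for 11 of 12 measured genes (median -0.36 log2), where Mal fell by 1.03 and Mog by 0.77 on the log2 scale (limma adjusted p = 0.0251 and 0.0301). Olig1 (-0.11 log2), Olig2 (-0.0075 log2), Pdgfra (-0.10 log2) and Sox10 (0.046 log2), genes of the oligodendrocyte lineage, lay nearer to zero than this median. Gpr17, also of the lineage, was at -0.36 log2. The summed level of the whole list was 12.98 to 13.13 log2 in wild type and 12.64 to 12.85 log2 in Nova2 KO. On both lists the groups did not overlap, and the part of these cells in the presynaptic values was not tested.

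For the other lists the summed levels overlapped between groups. The plain mean over the pan-neuronal markers did not, at 11.18 to 11.25 log2 in wild type and 11.01 to 11.16 log2 in Nova2 KO. Their summed level, in which bright genes weigh more, was 14.70 to 14.79 log2 in wild type and 14.73 to 14.82 log2 in Nova2 KO. Astrocyte markers had a median of -0.046 log2, microglial markers -0.18, vessel markers -0.066, markers of meninges and choroid plexus -0.070, striatal markers 0.072, thalamic markers -0.035 and hippocampal markers -0.037 log2. The thalamic list holds Slc17a6 itself. Of 4 blood markers 1 was measured, Alas2, at -0.72 log2 without a call.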

How the data were processed

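Cortex RNA of 8 mice, 4 wild type and 4 Nova2 KO by the titles, was measured on exon arrays with 1 array per mouse. The deposited values are log2 signals, 1 per probe set and array. Per the submitters' processing notes PLIER produced them by a model over the probes of a set, with no version named. The sources used here give no background correction, normalization or build, and the values were used as deposited.

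Names of probe sets came from the platform annotation, with symbols updated to the RefSeq gene list of GRCm38.p6. Of the probe sets 228454 named 1 gene, 3443 several and 159700 none here. Of 13017 symbols, 10783 were current, 2203 were updated and 31 left as given. Probe sets whose mean over 8 arrays exceeded the 25th percentile were kept. Gene values needed 3 kept probe sets and the index 5. Each measure was fitted over all features with lmFit and eBayes (limma 3.58.1, R 4.3.3), two-sided, with Benjamini-Hochberg adjustment at 0.05, without covariates. Functions were tested on simulated arrays. Figures used Python 3.11.15 and matplotlib 3.10.9.

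Members and lists were chosen with earlier results of these data known. Values by array are given for members past the threshold, the 2 per role group with the lowest p and the 10 probe sets with the lowest p of the index, 1 per gene. Other probe sets, and the ratios within families, were named or chosen after their values were seen. Alternatives covered filters, normalization, covariates, offset, summary, the test and left-out arrays.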

Additional observations from a re-analysis of the deposited data

Results flagged for a closer look

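In each group of 4 arrays, the highest or lowest was compared with the rest by Dixon's criterion, for 38 gene values and 10 probe set indices, which makes 96 groups. In 6 of them 1 array stood apart, namely 3 of 76 groups of gene values and 3 of 20 groups of the index. The groups share arrays, and the 10 probe sets were chosen by low p, so no chance rate is set beside these counts. For the gene values, Syt4 on wild type 4 read 10.98 log2, below the other 3 at 11.16 to 11.18 log2. Rab3gap1 on wild type 2 read 8.77 log2, above the others at 8.51 to 8.54 log2, and Rims2 on Nova2 KO 3 read 9.196 log2, above 9.02 to 9.04 log2. For the index, Unc13b probe set 4362248 on Nova2 KO 4 was at -0.90 log2, below -0.52 to -0.47 log2. Syn2 probe set 5441399 on Nova2 KO 1 was at -0.47 log2, above -0.66 to -0.64 log2, and Unc13a probe set 5212579 on Nova2 KO 2 was at -3.48 log2, below -3.24 to -3.195 log2.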

How the results depend on the processing

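The number of members past the threshold at the gene level was 0 in the main fit and in all 18 other settings. The 14 members with values by array kept their direction in 252 of 252 values under these settings, but not their size. The values of Vamp2, Unc13a, Syt5, Sv2c and Slc17a6 moved by over 1.5 times when single arrays were left out, and with the mean over probe sets Syt5 was 0.084 log2 and Slc17a6 -0.145 log2. The 10 probe sets kept theirs in 197 of 197, and 2 of the 197 passed the threshold, both with diffSplice, 1 of them the Syt7 probe set kept only through Nova2 KO. The index of Pclo probe set 5036000 was 0.22 log2 with diffSplice and with the mean over probe sets. With diffSplice 5 member probe sets (0.546%, against 0.259% of all probe sets) and 2 genes by Simes passed, against 0 in the main test. A fit that included the array median gave 1 member probe set by signal, against 0, while the calls over the whole array were 184 against 20. The lowest member adjusted p at the gene level under any setting was 0.11, for Ppfia3 with the replicate block. Members higher at an unadjusted p under 0.05 numbered 1 in the main fit. They numbered 0 with median centring, with quantile normalization and without both arrays numbered 4, when 5.69%, 7.56% and 7.58% of all genes were higher. With the 50th percentile filter or the array median as a covariate there were 2, when 8.47% and 11.66% of all genes were higher. There were 3 with the replicate block and 4 with the mean over probe sets, the latter when 8.71% of all genes were higher. Leaving out single arrays gave 0 to 2, when 5.79% to 8.04% of all genes were higher. Members lower at that p numbered 5 in the main fit. Over the settings that kept all 8 arrays they ran from 4 with median centring, when 2.74% of all genes were lower, to 8 with the replicate block. With the block 6.43% of all genes were lower and 12.05% higher at that p, against 3.72% and 7.86% without it. Leaving out single arrays gave 1 to 9 lower, when 2.56% to 6.28% of all genes were lower. The median of the members was then -0.091 to 0.020 log2, the last without Nova2 KO 4. The causes were not tested. The replicate numbers of the titles were checked for pairing: over genes, deviations of same-numbered arrays correlated at 0.14, 0.33, 0.024 and 0.57. For wild type 1, 2 and 4 the same-numbered Nova2 KO array was also the one that correlated best, and for wild type 3 it was Nova2 KO 2 (0.28). The titles do not state a pairing, and the arrays numbered 3 correlated below 0.1. The main fit therefore did not take the numbers to pair the mice. With the replicate block, 80 genes passed in all, against 25 without it. Its wild type mean below the filter left the Syt7 probe set as a description without a test.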
